A study of Zea mays with 12 samples.

Results

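Root transcripts of maize grown short of nitrogen (N) were set directly against those of maize grown short of potassium (K). The comparison used 6 of the series' 12 root libraries, 3 from N-deficient and 3 from K-deficient plants. They were chosen by their treatment label, with no measured value used. All plants were 40 days old and of the line DengHai605, which the labels call an inbred line, and total RNA was extracted with Trizol. The labels give each group's treatment as a deficiency of 1 element and state no dose, medium or duration. The 3 control libraries came from plants with normal N, phosphorus (P) and K, and 3 more came from P-deficient plants. Control levels are printed beside many results and P-deficient levels beside a few, with no test. The replicate labels 1_3, 4_6 and 7_9 are not tied to separate plants by the sources, so p-values measure the spread between libraries, which may be technical. A library is named below by group and label, as N 4_6.

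Roots take up nitrogen mainly as nitrate and ammonium, through high-affinity carriers when supply is low, and build it into glutamine, glutamate and asparagine. Potassium is not built into organic matter; it enters as an ion through channels and HAK-type carriers, and it sets membrane voltage and cell turgor. Nitrogen supply is also known, from Arabidopsis and rice, to alter how plants signal a shortage of phosphate.

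Levels are FPKM, which are fragment counts divided by transcript length and library size. They are given per library in the order 1_3, 4_6, 7_9, or as mean ± SD with n = 3 libraries per group. Differences are N deficiency minus K deficiency on log2(FPKM + 1) ± standard error, so a positive value is higher in N deficiency. They understate the change of genes with low values, and folds are ratios of mean FPKM. Reads recovered per library numbered 17301440 to 17959118 in N deficiency and 17228072 to 18393796 in K deficiency. Across the tested genes, Pearson's r was 0.968 to 0.979 between N-deficient libraries, 0.967 to 0.975 between K-deficient libraries and 0.910 to 0.948 between the groups. Genes are not independent replicates. Marker levels were summed as a check of the tissue label. None of the 9 root markers measured (root hair, root cap and crown root genes) was called between the groups, which does not itself bear on that label. Their summed level was 202 to 1065 FPKM in N deficiency, 321 to 374 FPKM in K deficiency and 271 to 476 FPKM in the control. N 4_6 was the highest of all and N 7_9 the lowest. Much of the root sum came from the root cap genes RCP1 and rcph2. They averaged 282 and 240 FPKM in N deficiency, against 115 and 100 FPKM in K deficiency. Of 23 leaf markers 5 were expressed enough to test, and the sum over all 23 was 12.9 to 20.6 FPKM in N deficiency, 19.4 to 26.1 FPKM in K deficiency and 43.2 to 62.7 FPKM in the control, with 7 to 12 of them listed at 0. Of those tested, 1 leaf marker, the chlorophyll a-b binding protein gene LOC100191715, was called lower, at 2.30 ± 0.720 FPKM in N deficiency and 7.07 ± 0.844 FPKM in K deficiency (-1.31 ± 0.19, adjusted p = 0.00752).

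Of 23420 genes tested, 2117 passed an adjusted p of 0.05 in limma's moderated test with Benjamini-Hochberg adjustment, a background of 9.04%. Of these, 831 were higher in N deficiency (3.55% of tested genes) and 1286 were lower (5.49%). Both shares are the background for every list count below. More of the large differences were on the lower side. Beyond 2 on the log2 scale there were 73 genes higher and 218 lower, and beyond 3 there were 25 higher and 62 lower. The median difference over all tested genes was -0.03. Every called gene had groups that did not overlap, which was true of 30.3% of all tested genes. Fewer genes passed when 1 library was left out: 1034 without N 4_6, 1039 without K 7_9 and 1215 without K 1_3.

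**Figure D1:**
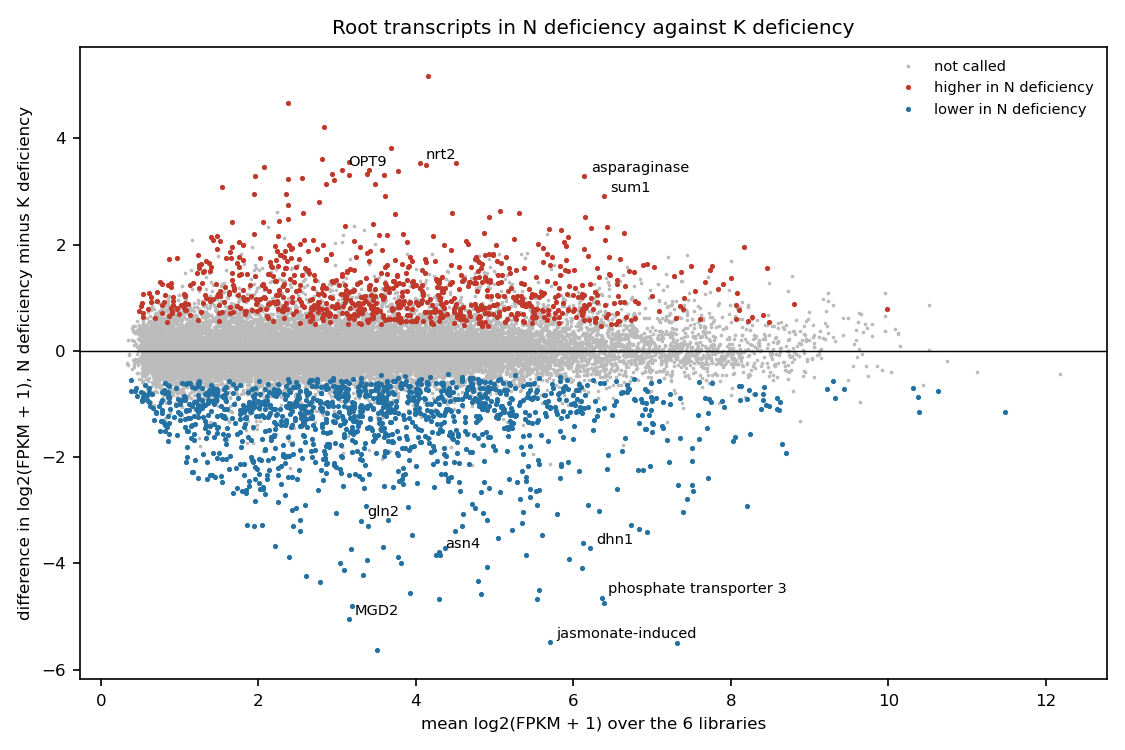
Difference in log2(FPKM + 1), N deficiency minus K deficiency (vertical axis), against mean log2(FPKM + 1) over the 6 libraries (horizontal axis), with 1 point for each of 23420 genes. Red points are the 831 genes higher in N deficiency, blue points the 1286 lower, and grey points were not called; beyond 3 on the log2 scale there are 25 red and 62 blue points.

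The high-affinity nitrate transporter genes nrt2 and nrt2.2 were many times more abundant in N deficiency than in K deficiency. Of 27 genes tested in the nitrate and ammonium transport list, 7 were called higher and 2 lower. The median difference was 0.16 (over all tested genes, -0.03). The list was matched by description and includes NRT1/PTR family members, so some of those called may not carry nitrate or ammonium. The transporter gene nrt2 had 58.6, 59.5 and 48.4 FPKM in N deficiency, against 5.23, 2.47 and 4.38 FPKM in K deficiency and 2.65, 2.65 and 1.74 FPKM in the control. Its close paralog nrt2.2 had 40.2, 33.7 and 25.4 FPKM in N deficiency, against 4.65, 3.19 and 2.78 FPKM in K deficiency and 1.55, 1.46 and 1.85 FPKM in the control. Both genes were high in every N-deficient library, and the K-deficient libraries were at or somewhat above the control level. The differences were 3.53 ± 0.23 for nrt2 (13.8-fold, adjusted p = 0.000421) and 2.91 ± 0.22 for nrt2.2 (9.34-fold, adjusted p = 0.00068). Reads of such similar genes could have been split between them in the authors' counting.

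NRT2 transporters work together with a partner protein of the NAR2 family. NAR2.1 was abundant everywhere, at 323, 341 and 296 FPKM in N deficiency, against 137, 107 and 148 FPKM in K deficiency and 107, 97.2 and 109 FPKM in the control. It was higher in N deficiency by 1.30 ± 0.16 (2.45-fold, adjusted p = 0.00446). NAR2.2 ran the other way, with 2.93, 4.77 and 18.1 FPKM in N deficiency, against 27.4, 31.7 and 41.9 FPKM in K deficiency and 70.2, 46.5 and 34.5 FPKM in the control. The N-deficient libraries of NAR2.2 differed widely, N 7_9 being the highest, but none reached the K-deficient range. Its call (-2.18 ± 0.53, adjusted p = 0.048) was lost without N 1_3, N 4_6, K 1_3, K 4_6 or K 7_9 (adjusted p 0.0898 to 0.149) and with a pseudocount of 0.1, no filter on low values, median-ratio scaling, upper-quartile scaling or robust weights (adjusted p 0.051 to 0.0907).

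The NRT1/PTR family carries nitrate, peptides or hormones, depending on the member. LOC100383742, described as family member 8.3, had 48.4, 64.2 and 61.7 FPKM in N deficiency, against 13.1, 22.1 and 17.4 FPKM in K deficiency (1.69 ± 0.20, adjusted p = 0.00407). LOC100192842 (member 5.2) averaged 11.0 ± 3.94 FPKM in N deficiency and 2.09 ± 1.25 FPKM in K deficiency, a difference of 2.005 ± 0.37 (adjusted p = 0.019). Both were higher in N deficiency with no overlap, and so was gpm152 (member 8.1), at 23.2 ± 0.857 FPKM in N deficiency and 13.6 ± 2.39 FPKM in K deficiency (0.74 ± 0.15, adjusted p = 0.0265). The call of LOC100192842 was lost without N 1_3 or N 4_6 (adjusted p 0.0554 to 0.0579). That of gpm152 was lost without N 1_3, N 4_6, N 7_9, K 1_3 or K 7_9 (adjusted p 0.0526 to 0.0776) and with the fit of all 12 libraries (adjusted p = 0.0841). LOC100383494 (member 6.2) was almost absent in N deficiency, with 1, 1 and 0 recovered reads, against 130, 87 and 47 reads in K deficiency. Its FPKM was 0.0498, 0.0523 and 0 in N deficiency, against 6.26, 4.25 and 3.12 in K deficiency and 3.44, 7.71 and 10.5 in the control (-2.38 ± 0.22, adjusted p = 0.00131). The Arabidopsis member with this number is a nitrate transporter.

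Among ammonium carriers, the ammonium transporter 1 gene LOC100272903 had 7.84, 10.4 and 10.1 FPKM in N deficiency, against 4.18, 2.02 and 2.34 FPKM in K deficiency and 3.72, 5.55 and 3.29 FPKM in the control (1.47 ± 0.23, adjusted p = 0.00972). The ammonium transporter 2 gene LOC100191554, chosen after its values were seen, averaged 4.84 ± 1.05 FPKM in N deficiency and 1.77 ± 0.937 FPKM in K deficiency and did not pass (adjusted p = 0.0522). The low-affinity nitrate carrier NRT1.2 averaged 10.3 ± 0.511 FPKM in N deficiency and 9.62 ± 0.642 FPKM in K deficiency, and its groups overlapped (adjusted p = 0.673). It too was chosen after its values were seen.

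Assimilation genes split into a set that was higher and a set that was lower. Of 13 tested, 4 were called higher and 4 lower, and the median difference was 0.16; the higher count was 2 without K 7_9. The nitrate reductase gene LOC542278 encodes the enzyme that turns nitrate into nitrite. It had 52.7, 67.6 and 41.7 FPKM in N deficiency, against 22.0, 16.3 and 19.0 FPKM in K deficiency and 12.9, 9.81 and 12.2 FPKM in the control (1.43 ± 0.20, adjusted p = 0.00671). The gene sum1 makes siroheme, the cofactor of nitrite reductase and sulfite reductase. It had 189, 252 and 253 FPKM in N deficiency, against 27.5, 27.3 and 34.1 FPKM in K deficiency and 22.6, 16.2 and 18.3 FPKM in the control (2.92 ± 0.16, 7.80-fold, adjusted p = 0.000234). Ferredoxin-6 (LOC100281226), from a family of electron carriers that serve nitrite reduction, had 68.7, 93.5 and 87.8 FPKM in N deficiency, against 10.4, 12.1 and 15.3 FPKM in K deficiency (2.64 ± 0.18, adjusted p = 0.000512). For all 3 genes the N-deficient libraries lay wholly above the K-deficient ones.

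Glutamine synthetase, which joins ammonium to glutamate, is encoded by several genes, and the 3 called did not share a direction. The abundant gln5 had 635, 565 and 621 FPKM in N deficiency, against 356, 340.3 and 295 FPKM in K deficiency and 213, 189.5 and 225 FPKM in the control (0.88 ± 0.15, adjusted p = 0.013). The gene gln4 had 482, 426 and 385 FPKM in N deficiency, against 298, 256 and 255 FPKM in K deficiency and 126, 136 and 195 FPKM in the control (0.67 ± 0.15, adjusted p = 0.037). Both deficiencies lay above the control for these genes, N deficiency furthest. The opposite held for gln2, with 2.82, 1.36 and 2.86 FPKM in N deficiency, against 31.4, 24.6 and 31.2 FPKM in K deficiency and 51.5, 38.3 and 35.9 FPKM in the control. It was 12.4-fold lower in N deficiency (-3.19 ± 0.22, adjusted p = 0.000532). The call of gln5 was lost without K 7_9 (adjusted p = 0.062), and that of gln4 without N 1_3, N 4_6, K 1_3, K 4_6 or K 7_9 (adjusted p 0.0589 to 0.131) and with no filter on low values (adjusted p = 0.0659).

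Of the asparagine synthetases, which make the nitrogen-rich transport amino acid asparagine, asn3 and asn4 were lower in N deficiency. The gene asn4 had 5.87, 4.86 and 2.70 FPKM in N deficiency, against 88.7, 64.6 and 64.4 FPKM in K deficiency and 29.7, 33.0 and 31.7 FPKM in the control (-3.78 ± 0.25, 16.2-fold lower, adjusted p = 0.000449). The N-deficient libraries lay below the control and the K-deficient libraries above it. The gene asn3 had 7.93, 3.94 and 5.06 FPKM in N deficiency, against 21.2, 25.9 and 22.5 FPKM in K deficiency and 48.2, 48.6 and 49.5 FPKM in the control (-1.90 ± 0.22, adjusted p = 0.00364). Here both deficiencies lay below the control. Ferredoxin-dependent glutamate synthase, fgs1, had 22.6, 26.0 and 20.3 FPKM in N deficiency, against 46.7, 44.3 and 39.9 FPKM in K deficiency (-0.90 ± 0.13, adjusted p = 0.00874).

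**Figure D2:**
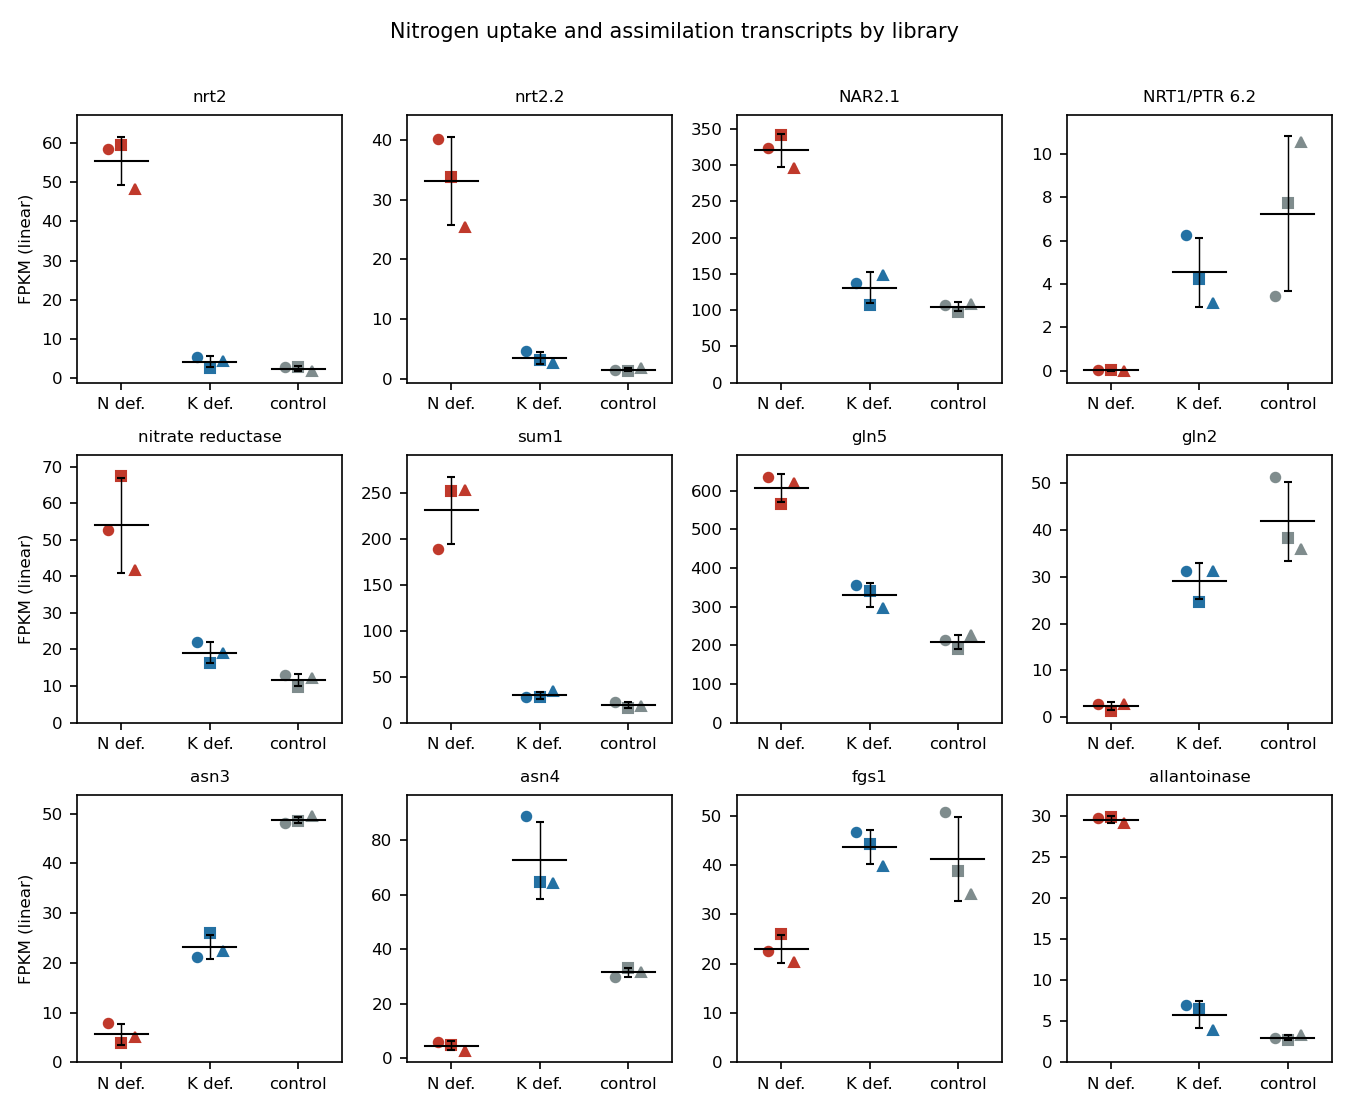
FPKM of 12 nitrogen genes (linear axes that differ by panel) in the 3 N-deficient, 3 K-deficient and 3 control libraries; circles, squares and triangles are replicates 1_3, 4_6 and 7_9, lines are means and bars are SD. The N-deficient and K-deficient points do not overlap in any panel, with nrt2 averaging 55.5 FPKM in N deficiency and 4.03 FPKM in K deficiency, and asn4 4.48 FPKM in N deficiency and 72.6 FPKM in K deficiency.

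Transcripts that release or move organic nitrogen also differed. A probable asparaginase, LOC103645841, which frees ammonium from asparagine, had 241, 154 and 285 FPKM in N deficiency, against 15.7, 21.4 and 29.9 FPKM in K deficiency and 26.7, 55.1 and 31.0 FPKM in the control (3.29 ± 0.29, 10.2-fold, adjusted p = 0.00119). Allantoinase (LOC100274212), which breaks down a ureide made from purines, had 29.8, 29.8 and 29.1 FPKM in N deficiency, against 6.99, 6.52 and 4.001 FPKM in K deficiency and 2.94, 2.75 and 3.39 FPKM in the control (2.19 ± 0.19, adjusted p = 0.00113). Both enzymes act on nitrogen already held in the plant, and both were higher in all N-deficient libraries. Ureidoglycolate hydrolase (LOC100279195), a later step of ureide use, averaged 10.1 ± 0.930 FPKM in N deficiency and 5.87 ± 0.149 FPKM in K deficiency (0.69 ± 0.12, adjusted p = 0.0178), a call lost without N 1_3, N 4_6, K 1_3 or K 7_9 (adjusted p 0.0505 to 0.0667). Together 2 of 6 ureide and urea genes were higher and 0 lower.

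Among 39 amino acid and peptide carriers, 7 were called higher and 5 lower, with a median of 0.13. Oligopeptide transporter 9 (LOC100191494) had 25.5, 25.1 and 27.9 FPKM in N deficiency, against 1.88, 1.02 and 1.91 FPKM in K deficiency and 1.56, 1.37 and 2.14 FPKM in the control (3.40 ± 0.17, 16.3-fold, adjusted p = 0.000188). The amino acid transporter ANT1 (AY105589) had 3.23, 3.24 and 2.65 FPKM in N deficiency, against 7.46, 6.64 and 7.81 FPKM in K deficiency and 27.4, 17.2 and 19.0 FPKM in the control (-1.04 ± 0.14, adjusted p = 0.0057). A cationic amino acid transporter, LOC100284962, was low throughout, at 0.351 ± 0.205 FPKM in N deficiency and 2.27 ± 0.418 FPKM in K deficiency (-1.28 ± 0.18, adjusted p = 0.00671). For these carriers the higher count was 2 without K 7_9, 3 without K 1_3 and 4 without N 4_6, and the lower count was 3 without N 1_3 or K 7_9.

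Of 12 amino acid breakdown genes, 2 were higher and 3 lower; the lower count was 1 without N 4_6 or K 7_9. Glutamate decarboxylases, which make the amino acid GABA, went in opposite directions. LOC100381655 had 132, 212 and 161 FPKM in N deficiency, against 29.3, 35.3 and 33.1 FPKM in K deficiency (2.31 ± 0.19, adjusted p = 0.000926). LOC100284394 had 31.3, 16.0 and 45.6 FPKM in N deficiency, against 129, 119 and 127 FPKM in K deficiency and 440.2, 309.6 and 288 FPKM in the control (-2.098 ± 0.33, adjusted p = 0.0103). The first was higher in all N-deficient libraries and the second lower. Protein turnover lists held no called gene: limma called 0 of 15 autophagy genes and 0 of 47 proteasome genes in either direction. At an unadjusted p under 0.05 there were 1 autophagy and 3 proteasome genes, and voom on recovered reads called 0 autophagy genes and 2 proteasome genes. Single proteases did differ: cysteine protease 1 (LOC100284926) had 44.6, 28.6 and 24.8 FPKM in N deficiency, against 6.92, 3.30 and 3.75 FPKM in K deficiency (2.58 ± 0.29, adjusted p = 0.00317). The metallopeptidase gene LOC100284878 had 193, 186 and 199 FPKM in N deficiency, against 37.7, 34.6 and 40.6 FPKM in K deficiency (2.33 ± 0.12, adjusted p = 0.000188).

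Called potassium transport genes had modest levels in both groups. Of 27 tested, 2 were called higher in N deficiency and 7 lower, and the median difference was -0.21, against -0.03 over all tested genes. The channel gene LOC100281406, described as AKT2/3, had 1.34, 1.86 and 3.13 FPKM in N deficiency, against 9.41, 10.3 and 10.5 FPKM in K deficiency and 2.33, 3.09 and 2.74 FPKM in the control (-1.87 ± 0.21, 4.77-fold lower, adjusted p = 0.00339). In Arabidopsis this channel moves potassium in the phloem. HAK20, described in the deposited table as potassium transporter 19-like, had 1.53, 0.974 and 0.657 FPKM in N deficiency, against 11.6, 5.22 and 6.44 FPKM in K deficiency and 2.14, 2.67 and 2.43 FPKM in the control (-2.05 ± 0.29, 7.36-fold lower, adjusted p = 0.0072). For both genes all K-deficient libraries lay above the control libraries. These 2 calls held without each library in turn. For the whole list the higher count was 0 without N 4_6, K 1_3 or K 7_9 and 1 without N 1_3, N 7_9 or K 4_6, and the lower count was 2 without N 4_6 or K 7_9 and 3 without N 7_9, K 1_3 or K 4_6.

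The other called members were more fragile. SKOR (LOC100279230), which in Arabidopsis releases potassium into the xylem, had 2.88, 1.65 and 2.21 FPKM in N deficiency, against 4.89, 6.16 and 9.05 FPKM in K deficiency and 1.33, 1.74 and 3.61 FPKM in the control (-1.23 ± 0.24, adjusted p = 0.0223). A calcium-activated outward channel gene, LOC100284342, had 2.68, 0.535 and 1.24 FPKM in N deficiency, against 9.72, 5.64 and 4.496 FPKM in K deficiency and 16.9, 5.91 and 9.90 FPKM in the control (-1.65 ± 0.36, adjusted p = 0.0345). Both were lower in N deficiency without overlap, though K-deficient SKOR lay above the control range and the outward channel did not. Of the HAK carriers, 3 more were lower: HAK24 (-1.11 ± 0.26, adjusted p = 0.0411), HAK18 (-0.61 ± 0.13, adjusted p = 0.0286) and HAK12 (-0.67 ± 0.14, adjusted p = 0.0286). HAK24 averaged 1.36 ± 0.666 FPKM in N deficiency and 4.11 ± 1.35 FPKM in K deficiency, HAK18 20.1 ± 2.37 FPKM in N deficiency and 31.1 ± 1.29 FPKM in K deficiency, and HAK12 4.09 ± 0.416 FPKM in N deficiency and 7.11 ± 0.708 FPKM in K deficiency. In the control these 3 genes averaged 8.19 ± 1.69, 26.4 ± 3.62 and 6.23 ± 1.26 FPKM in the same order.

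On the higher side, HAK21 had 1.18, 2.91 and 1.57 FPKM in N deficiency, against 0.382, 0.253 and 0.0434 FPKM in K deficiency and 0.285, 2.31 and 0.919 FPKM in the control (1.20 ± 0.24, adjusted p = 0.0261). Potassium transporter 1 (LOC100279933) had 3.67, 3.88 and 4.25 FPKM in N deficiency, against 1.93, 2.101 and 0.768 FPKM in K deficiency and 0.6003, 0.587 and 1.13 FPKM in the control (0.97 ± 0.23, adjusted p = 0.0442). Neither group overlapped the other for these genes, but the levels were low. Leaving out libraries or changing the filter, scaling, pseudocount or tool ended these calls: SKOR without N 4_6, N 7_9 or K 7_9 (adjusted p 0.0541 to 0.0778); the outward channel without N 4_6, N 7_9, K 1_3, K 4_6 or K 7_9 (adjusted p 0.0609 to 0.0951) and with no filter on low values or voom on recovered reads (adjusted p 0.0699 to 0.072); HAK24 without N 4_6, N 7_9, K 1_3, K 4_6 or K 7_9 (adjusted p 0.061 to 0.135) and with no filter on low values (adjusted p = 0.0771). HAK18 lost its call without N 1_3, N 4_6, K 1_3, K 4_6 or K 7_9 (adjusted p 0.0752 to 0.103) and with median-ratio scaling or voom on recovered reads (adjusted p 0.0502 to 0.0642), and HAK12 without any 1 of the 6 libraries (adjusted p 0.0574 to 0.0883). HAK21 lost its call without N 4_6, N 7_9, K 1_3, K 4_6 or K 7_9 (adjusted p 0.0516 to 0.0878) and with a pseudocount of 10 (adjusted p = 0.0503), and potassium transporter 1 without N 1_3, N 4_6, N 7_9, K 1_3 or K 7_9 (adjusted p 0.0634 to 0.126) and with a pseudocount of 0.1 or no filter on low values (adjusted p 0.0672 to 0.0805). The 2 most abundant members by mean FPKM did not pass: LOC100502520, described as a high-affinity transporter and chosen after its values were seen, averaged 74.7 ± 14.0 FPKM in N deficiency and 88.0 ± 12.7 FPKM in K deficiency (adjusted p = 0.459), with overlap. HAK10, chosen in the same way, averaged 58.7 ± 4.74 FPKM in N deficiency and 60.8 ± 1.60 FPKM in K deficiency (adjusted p = 0.823).

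**Figure D3:**
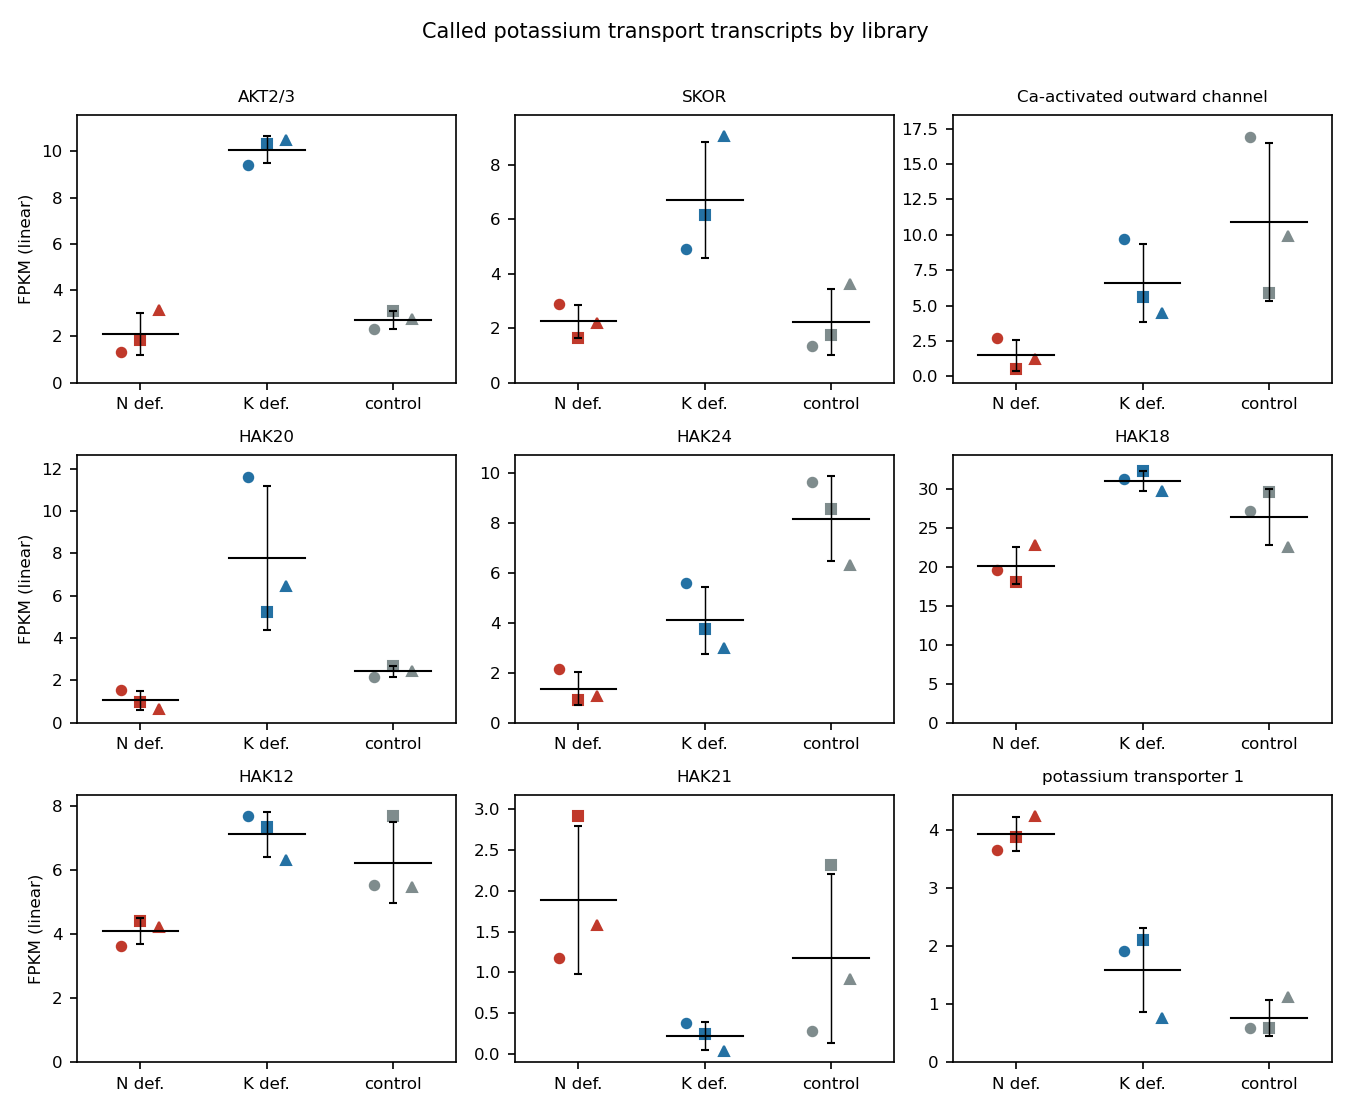
FPKM of the 9 called potassium transport genes (linear axes that differ by panel) in the N-deficient, K-deficient and control libraries; circles, squares and triangles are replicates 1_3, 4_6 and 7_9, lines are means and bars are SD. The 7 genes of the first panels are lower in N deficiency, with AKT2/3 at 1.34 to 3.13 FPKM in N deficiency against 9.41 to 10.5 FPKM in K deficiency, and HAK21 and potassium transporter 1 are higher.

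CIPK kinases pair with CBL calcium sensors and regulate potassium and nitrate transport in Arabidopsis. Of 33 CBL and CIPK genes, 5 were called lower in N deficiency and 1 higher, against 5.49% lower and 3.55% higher over all tested genes; the median difference was -0.17. LOC100141385 had 1.30, 2.66 and 1.45 FPKM in N deficiency, against 16.6, 13.4 and 17.5 FPKM in K deficiency and 24.0, 25.1 and 23.0 FPKM in the control (-2.61 ± 0.21, 8.80-fold lower, adjusted p = 0.000911). Its N-deficient libraries stood far below both other groups. LOC100381968 averaged 35.2 ± 8.61 FPKM in N deficiency and 72.6 ± 10.5 FPKM in K deficiency (adjusted p = 0.0197), a call lost without N 1_3, N 4_6, K 1_3 or K 4_6 (adjusted p 0.0535 to 0.075). LOC100281661 averaged 0.945 ± 0.560 FPKM in N deficiency and 3.37 ± 0.437 FPKM in K deficiency (adjusted p = 0.0178), a call lost without N 4_6, K 1_3 or K 7_9 (adjusted p 0.0589 to 0.0682). For the list the higher count was 0 without N 4_6, N 7_9, K 1_3, K 4_6 or K 7_9, and the lower count was 1 without N 4_6 or K 1_3, 2 without K 7_9 and 3 without N 7_9 or K 4_6.

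Phosphate uptake and signalling transcripts gave some of the largest differences of the comparison. Of 16 genes tested, 8 were lower in N deficiency and 0 higher, with a median difference of -0.80; the lower count was 5 without N 4_6 or K 7_9. Inorganic phosphate transporter 3 (LOC732717), a plasma membrane carrier, had 22.1, 21.3 and 7.71 FPKM in N deficiency, against 559, 275 and 449 FPKM in K deficiency and 95.8, 129.9 and 149 FPKM in the control (-4.64 ± 0.42, 25.1-fold lower, adjusted p = 0.00127). The N-deficient libraries lay below the control and the K-deficient libraries above it. In P deficiency it averaged 431 ± 83.5 FPKM. A gene for an SPX domain membrane protein, LOC100501893, had 1.46, 1.49 and 1.09 FPKM in N deficiency, against 51.7, 35.9 and 41.4 FPKM in K deficiency and 42.9, 29.0 and 33.6 FPKM in the control (-4.22 ± 0.17, adjusted p = 9.38e-05). SPX domains sense the phosphate status of the cell through inositol phosphates.

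The transporter gene pht2 had 56.3, 69.2 and 38.9 FPKM in N deficiency, against 280.5, 217 and 278 FPKM in K deficiency and 192, 329.6 and 195 FPKM in the control (-2.25 ± 0.22, adjusted p = 0.00202). Here K deficiency and the control overlapped, and N deficiency alone was low. Chosen after their values were seen, 3 more phosphate carriers were called. LOC732718 (transporter 5) had 0.788, 1.03 and 0.343 FPKM in N deficiency, against 12.3, 5.63 and 11.2 FPKM in K deficiency and 3.81, 5.49 and 3.95 FPKM in the control (-2.59 ± 0.29, adjusted p = 0.00317). The abundant pht1 had 199, 158 and 171 FPKM in N deficiency, against 279, 242 and 279.7 FPKM in K deficiency and 215, 225 and 196 FPKM in the control (-0.602 ± 0.14, adjusted p = 0.0455). Phosphate transporter 9 (LOC100502494) averaged 2.60 ± 0.943 FPKM in N deficiency and 7.23 ± 2.40 FPKM in K deficiency (-1.18 ± 0.27, adjusted p = 0.0407). All 3 were lower in N deficiency without overlap. The call of pht1 was lost without any 1 of the 6 libraries (adjusted p 0.0551 to 0.157) and with no filter on low values or voom on recovered reads (adjusted p 0.0543 to 0.0667), and that of LOC100502494 without N 4_6, N 7_9, K 1_3 or K 7_9 (adjusted p 0.0842 to 0.124) and with no filter on low values or voom on recovered reads (adjusted p 0.0551 to 0.0783). PHOSPHATE STARVATION RESPONSE 1, a regulator gene, also chosen after its values were seen, averaged 11.2 ± 1.39 FPKM in N deficiency and 9.87 ± 0.631 FPKM in K deficiency and did not pass (adjusted p = 0.515).

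Enzymes that free phosphate or replace phospholipids showed the same direction for most called members. Of 39 tested, 10 were lower in N deficiency and 2 higher, with a median of -0.31. The 2 higher ones are phospholipase C genes, and the higher count was 1 without N 4_6 or K 7_9. The phosphodiesterase gene GDPD2 (LOC100383215), which acts on lipid head groups, had 11.6, 8.09 and 7.71 FPKM in N deficiency, against 251, 176 and 253 FPKM in K deficiency and 193, 196 and 161 FPKM in the control (-4.49 ± 0.21, 24.8-fold lower, adjusted p = 0.000104). Purple acid phosphatase 15 (LOC100272946) had 3.23, 2.79 and 1.75 FPKM in N deficiency, against 61.7, 41.04 and 65.9 FPKM in K deficiency and 67.5, 78.3 and 64.4 FPKM in the control (-3.99 ± 0.23, adjusted p = 0.000259). The groups stood far apart for both genes, and the K-deficient and control ranges overlapped. The galactolipid enzyme MGD2 (LOC100383973) had 1.10, 0.455 and 0.200 FPKM in N deficiency, against 69.9, 30.9 and 57.3 FPKM in K deficiency and 16.9, 19.2 and 22.8 FPKM in the control (-5.05 ± 0.33, 90.2-fold lower, adjusted p = 0.000449). Its K-deficient libraries lay above the control, and it averaged 93.0 ± 5.28 FPKM in P deficiency. In P deficiency GDPD2 averaged 496 ± 59.7 FPKM, and purple acid phosphatase 15 averaged 69.9 ± 1.75 FPKM, against 70.1 ± 7.28 FPKM in the control.

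Another phosphatase gene and an ids4-like gene stood among the 15 largest lower differences. Phosphatase phospho 1 (LOC100191227) had 18.7, 14.0 and 13.3 FPKM in N deficiency, against 537, 270.0 and 555 FPKM in K deficiency and 240.3, 244 and 207 FPKM in the control (-4.75 ± 0.29, adjusted p = 0.000321). The ids4-like gene LOC100282863, named after a barley gene of iron deficiency, had 4.17, 3.31 and 1.61 FPKM in N deficiency, against 159, 56.8 and 103 FPKM in K deficiency and 61.8, 46.03 and 67.9 FPKM in the control (-4.67 ± 0.40, adjusted p = 0.00106). Both were low in every N-deficient library. PEP carboxylase kinase 4 (PPCK4), which switches on the carboxylase that feeds malate synthesis, had 2.70, 2.99 and 4.41 FPKM in N deficiency, against 30.7, 11.6 and 28.9 FPKM in K deficiency and 38.8, 21.4 and 30.7 FPKM in the control (-2.41 ± 0.36, adjusted p = 0.00848). In P deficiency PPCK4 averaged 166 ± 46.2 FPKM. Of 34 PEP carboxylase and organic acid genes, 2 were higher and 5 lower; the malate dehydrogenases pco143139c (1.58, adjusted p = 0.0065) and mdh6 (-1.49, adjusted p = 0.00739) differed in sign. For the list the lower count was 3 without N 4_6, K 1_3 or K 7_9 and 8 without K 4_6. The 2 dehydrogenases averaged 227 ± 44.6 and 1.68 ± 0.671 FPKM in N deficiency, against 75.5 ± 17.0 and 6.41 ± 0.742 FPKM in K deficiency.

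**Figure D4:**
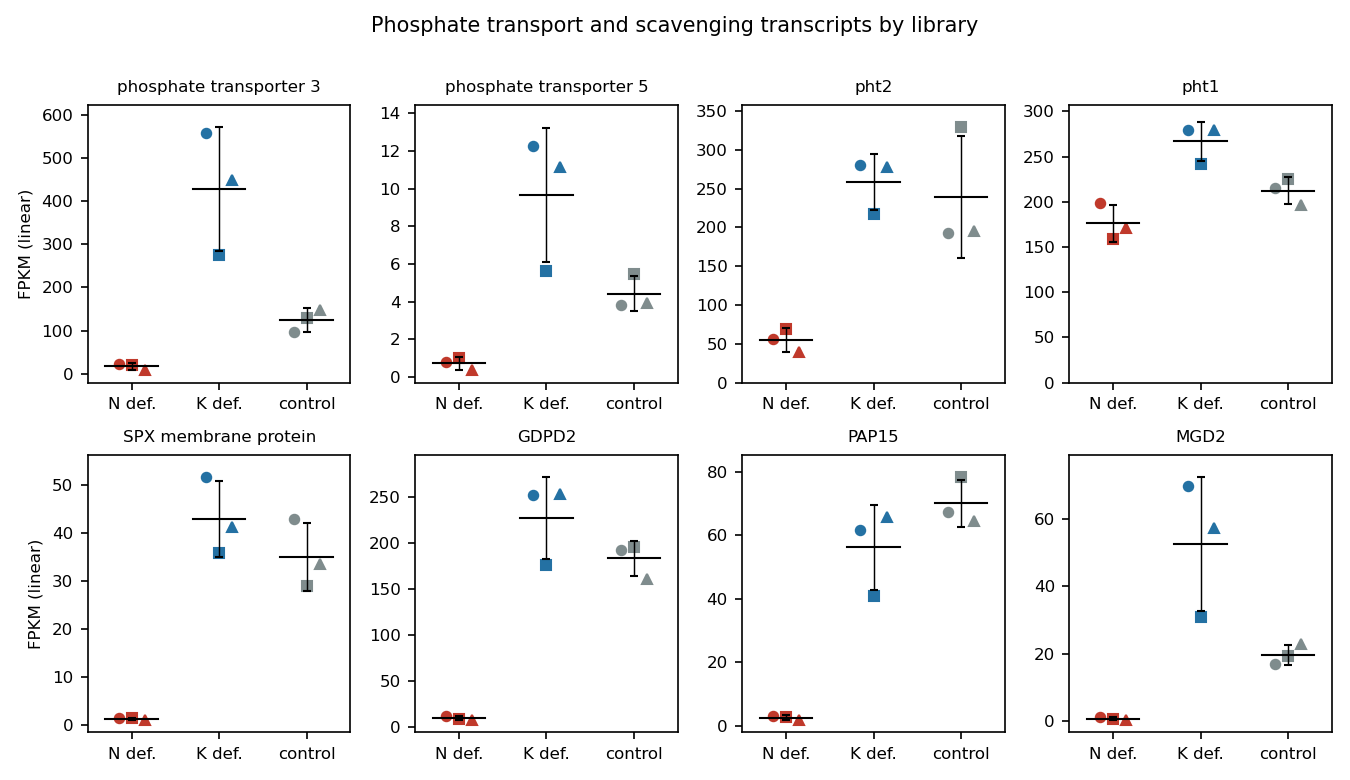
FPKM of 8 phosphate genes (linear axes that differ by panel) in the N-deficient, K-deficient and control libraries; circles, squares and triangles are replicates 1_3, 4_6 and 7_9, lines are means and bars are SD. Every N-deficient point lies below every K-deficient point, for example 158 to 199 FPKM in N deficiency against 242 to 279.7 FPKM in K deficiency for pht1, and 0.200 to 1.10 FPKM in N deficiency against 30.9 to 69.9 FPKM in K deficiency for MGD2.

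Sulfate and metal carriers differed gene by gene. Of 16 sulfate genes, 1 was higher and 3 were lower; the higher count was 0 without N 4_6, K 1_3 or K 7_9. The putative sulfate transporter 3.5 gene LOC100382058 had 7.76, 7.08 and 7.36 FPKM in N deficiency, against 59.8, 70.1 and 79.0 FPKM in K deficiency and 26.1, 18.2 and 32.2 FPKM in the control (-3.06 ± 0.14, 9.41-fold lower, adjusted p = 0.000104). A second sulfate transporter, LOC100284487, averaged 7.04 ± 2.69 FPKM in N deficiency and 45.1 ± 6.15 FPKM in K deficiency (-2.57 ± 0.26, adjusted p = 0.00211). Serine acetyltransferase 1, sat1, the entry to cysteine synthesis, averaged 11.7 ± 3.05 FPKM in N deficiency, 38.0 ± 4.501 FPKM in K deficiency and 103 ± 35.2 FPKM in the control (-1.64 ± 0.20, adjusted p = 0.00391). All 3 were lower in every N-deficient library than in any K-deficient one.

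Of 28 iron and metal genes, 4 were higher and 5 lower. A vacuolar iron transporter homolog, LOC100383083, had 9.06, 6.14 and 8.61 FPKM in N deficiency, against 50.7, 26.5 and 40.3 FPKM in K deficiency (-2.14 ± 0.25, adjusted p = 0.00364). Zinc transporter 1 (LOC100282628) had 17.3, 10.2 and 10.02 FPKM in N deficiency, against 3.97, 2.46 and 2.77 FPKM in K deficiency (1.71 ± 0.24, adjusted p = 0.0072). The first was wholly lower and the second wholly higher in N deficiency. Zinc transporter 4 (umc1796) averaged 28.8 ± 3.97 FPKM in N deficiency and 56.8 ± 13.9 FPKM in K deficiency (adjusted p = 0.0318), a call lost without N 1_3, N 4_6, N 7_9, K 1_3 or K 4_6 (adjusted p 0.0501 to 0.109) and with no filter on low values (adjusted p = 0.0561). For the list the higher count was 1 without N 1_3, N 4_6, N 7_9 or K 1_3 and 2 without K 4_6 or K 7_9, and the lower count was 1 without N 7_9, K 1_3 or K 4_6 and 2 without N 1_3, N 4_6 or K 7_9.

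Aquaporins, the channels that pass water through membranes, were called in 1 direction. Of 27, 7 were lower in N deficiency and 0 higher, with a median of -0.46. The list's median was 0.09 in N deficiency and 0.55 in K deficiency when each was set against the same 3 control libraries. The plasma membrane gene pip2c had 185, 165 and 96.0 FPKM in N deficiency, against 633, 397 and 411 FPKM in K deficiency and 263, 199 and 471 FPKM in the control (-1.71 ± 0.29, adjusted p = 0.0142). The gene nip1a averaged 2.504 ± 1.28 FPKM in N deficiency and 11.7 ± 3.69 FPKM in K deficiency (-1.88 ± 0.34, adjusted p = 0.0182). The vacuolar gene tip4b was scarce, at 0.593 ± 0.517 FPKM in N deficiency and 6.66 ± 3.92 FPKM in K deficiency (-2.21 ± 0.39, adjusted p = 0.0165). Only pip2c among these 3 held its call without each library in turn: nip1a lost it without K 7_9 (adjusted p = 0.0692) and tip4b without K 7_9 (adjusted p = 0.0504) and with a pseudocount of 0.1 or voom on recovered reads (adjusted p 0.0506 to 0.0919). The lower count of the list was 1 without K 7_9, 3 without N 4_6 or K 1_3 and 4 without N 7_9.

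Several transcripts of protection against drying and heat were lower in N deficiency. Of 35 dehydrin and LEA genes, which protect proteins in drying cells, 6 were lower and 1 higher. The dehydrin gene dhn1 had 51.9, 7.45 and 18.1 FPKM in N deficiency, against 283, 163 and 418 FPKM in K deficiency and 7446, 5058 and 4042 FPKM in the control (-3.72 ± 0.64, adjusted p = 0.0148). The control was far above both deficiencies, and its libraries overlapped neither. A group 3 LEA gene, AY106518, had 1.76, 0.394 and 1.06 FPKM in N deficiency, against 15.1, 6.69 and 29.5 FPKM in K deficiency and 415, 202 and 213 FPKM in the control (-2.96 ± 0.49, adjusted p = 0.0122). Lea14-A (LOC100286287) averaged 3.05 ± 0.786 FPKM in N deficiency and 13.6 ± 7.14 FPKM in K deficiency (-1.75 ± 0.34, adjusted p = 0.023). The calls of dhn1 and Lea14-A were lost, the first without K 7_9 (adjusted p = 0.0592) and the second without N 4_6, N 7_9 or K 1_3 (adjusted p 0.059 to 0.0821) and with no filter on low values (adjusted p = 0.0504). The 35 seed markers, storage protein and oil body genes, summed to 78.8 to 107 FPKM in N deficiency, 104 to 152 FPKM in K deficiency and 218 to 254 FPKM in the control, with 21 to 28 of them listed at 0. The gene oleosin was the 1 marker called of 5 tested (adjusted p = 0.0317), and the part of these transcripts in the LEA result was not tested. For the LEA list the higher count was 0 without N 1_3, N 4_6, K 1_3, K 4_6 or K 7_9, and the lower count was 2 without N 4_6, N 7_9, K 1_3 or K 7_9.

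Of 150 heat shock proteins and chaperones, 17 were lower and 3 higher, with a median of -0.05. The disaggregase gene hsp101 had 21.0, 12.2 and 19.3 FPKM in N deficiency, against 99.7, 106 and 88.7 FPKM in K deficiency and 194, 116 and 147 FPKM in the control (-2.45 ± 0.20, 5.60-fold lower, adjusted p = 0.000996). A class II small heat shock protein, LOC100191598, had 26.8, 17.6 and 38.0 FPKM in N deficiency, against 108, 123 and 132 FPKM in K deficiency (-2.16 ± 0.26, adjusted p = 0.00378). Another small one, LOC100285576, averaged 12.1 ± 1.86 FPKM in N deficiency and 29.0 ± 0.975 FPKM in K deficiency (-1.20 ± 0.14, adjusted p = 0.00349). These 3 were lower in N deficiency with no overlap. The 3 higher members are all DnaJ-type chaperones, but called DnaJ genes went both ways. The dnaJ protein gene LOC100282402, chosen after its values were seen, was lower in N deficiency (-0.67 ± 0.15, limma adjusted p = 0.0345). Its call was lost on omission of any of 5 libraries (adjusted p 0.0639 to 0.0963). Among 15 heat shock factors, 3 were lower; heat shock factor protein 3 (LOC101202695) averaged 11.4 ± 2.83 FPKM in N deficiency and 55.0 ± 20.4 FPKM in K deficiency (-2.12 ± 0.30, adjusted p = 0.00717). Heat shock factor protein 1 (LOC100286298) averaged 19.0 ± 11.2 FPKM in N deficiency and 112 ± 40.5 FPKM in K deficiency (adjusted p = 0.0178), a call lost without K 1_3 or K 7_9 (adjusted p 0.056 to 0.0687). For heat shock proteins the higher count was 5 without N 1_3 or K 4_6, and the lower count was 10 without N 4_6 and 11 without K 1_3. For the factors the lower count was 1 without K 1_3.

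The abscisic acid and protein phosphatase 2C list, which holds core repressors of that stress hormone's signalling, had 9 of 67 members lower and 2 higher. The probable phosphatase 2C 37 (Orphan337) had 3.29, 1.11 and 3.20 FPKM in N deficiency, against 29.0, 27.7 and 40.4 FPKM in K deficiency and 109, 58.2 and 63.4 FPKM in the control (-3.29 ± 0.30, 12.8-fold lower, adjusted p = 0.00129). The abscisic stress protein homolog aba1 had 139, 303 and 231 FPKM in N deficiency, against 878, 799 and 767 FPKM in K deficiency (-1.92 ± 0.28, adjusted p = 0.00763). LOC100283027, another phosphatase 2C, averaged 27.0 ± 2.91 FPKM in N deficiency and 82.4 ± 7.67 FPKM in K deficiency (-1.58 ± 0.13, adjusted p = 0.00105). All 3 stood lower in N deficiency, and none of the calls was lost without a library. For the list the higher count was 0 without N 1_3, N 4_6, K 1_3, K 4_6 or K 7_9 and 1 without N 7_9, and the lower count was 5 without K 7_9.

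Of 70 sucrose and starch genes, 3 were higher and 8 lower, with a median difference of -0.03 that equals the -0.03 over all tested genes to 2 decimals; the higher count was 1 without N 4_6, and the lower count was 3 without N 4_6, 4 without K 7_9 and 5 without K 1_3. Stachyose synthase (LOC100281190), from outside that list and among the 15 largest lower differences, which builds a storage sugar of the raffinose family, had 5.22, 2.78 and 4.51 FPKM in N deficiency, against 60.0, 69.7 and 86.5 FPKM in K deficiency and 296, 200.4 and 192 FPKM in the control (-3.84 ± 0.22, 17.3-fold lower, adjusted p = 0.000256). Sucrose synthase 2, sus2, had 5.77, 2.99 and 8.15 FPKM in N deficiency, against 30.4, 24.9 and 32.2 FPKM in K deficiency and 165, 144 and 114 FPKM in the control (-2.26 ± 0.29, adjusted p = 0.00515). A SUT1-like sucrose transporter, LOC103639536, averaged 0.599 ± 0.383 FPKM in N deficiency and 7.05 ± 1.82 FPKM in K deficiency (-2.33 ± 0.24, adjusted p = 0.00214). In each of these genes N deficiency was lowest, K deficiency stood between and the control was highest by its mean. A galactinol-sucrose galactosyltransferase gene, LOC103641497, was higher instead, at 5.37 ± 0.341 FPKM in N deficiency and 1.83 ± 0.508 FPKM in K deficiency (1.18 ± 0.17, adjusted p = 0.00693). Among 52 glycolysis and fermentation genes, 3 were higher and 4 lower, against 3.55% higher and 5.49% lower over all tested genes. The list was led by adh2, an alcohol dehydrogenase, at 137 ± 28.8 FPKM in N deficiency and 45.1 ± 5.93 FPKM in K deficiency (1.57 ± 0.18, adjusted p = 0.00349). Here the higher count was 1 without N 4_6, and the lower count was 0 without K 1_3 or K 7_9 and 1 without N 4_6 or N 7_9.

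Benzoxazinoids are the nitrogen-containing defence compounds of young maize. Of 10 synthesis genes matched by description, 4 were lower and 0 higher. Genes described only as P450 enzymes, such as CYP71C1, are not in that count. The first enzyme, bx1, had 17.3, 8.88 and 38.5 FPKM in N deficiency, against 180.3, 194 and 116 FPKM in K deficiency and 97.9, 63.4 and 57.7 FPKM in the control (-3.06 ± 0.47, 7.59-fold lower, adjusted p = 0.00944). The next, bx2, had 1.73, 0.0872 and 1.37 FPKM in N deficiency, against 13.5, 31.8 and 6.41 FPKM in K deficiency (-2.99 ± 0.56, adjusted p = 0.0202). The K-deficient libraries stood above both other groups for bx1. The gene bx6 averaged 46.7 ± 10.2 FPKM in N deficiency and 98.4 ± 21.2 FPKM in K deficiency (-1.06 ± 0.22, adjusted p = 0.0305). The calls of bx2 and bx6 were lost, the first without N 4_6 or K 1_3 (adjusted p 0.056 to 0.0624) and with a pseudocount of 10 or voom on recovered reads (adjusted p 0.0528 to 0.114) and the second without N 1_3, N 4_6, K 1_3 or K 4_6 (adjusted p 0.0617 to 0.0847) and with no filter on low values, median-ratio scaling or voom on recovered reads (adjusted p 0.055 to 0.0736). For the list the higher count was 1 without N 1_3 or K 4_6, and the lower count was 1 without N 4_6 or K 1_3 and 2 without N 1_3 or K 4_6. Of 79 P450 genes, 3 were higher and 10 lower, against 3.55% higher and 5.49% lower over all tested genes. The higher P450 count was 0 without K 7_9 and 1 without N 4_6. The lower P450 count was 4 without N 4_6 and 6 without K 1_3 or K 7_9. P450 enzymes 71C1 and 71C3 were lower, CYP71C1 with a difference of -2.24 ± 0.28 (adjusted p = 0.0044) and LOC103652726 with -2.39 ± 0.29 (adjusted p = 0.00436). CYP71C1 had 54.6, 34.1 and 71.1 FPKM in N deficiency, against 225, 307 and 211 FPKM in K deficiency, and LOC103652726 averaged 25.0 ± 9.48 FPKM in N deficiency and 132 ± 36.7 FPKM in K deficiency.

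Of 45 flavonoid genes, 2 were higher and 10 lower, against 3.55% higher and 5.49% lower over all tested genes. The higher flavonoid count was 1 without N 4_6, K 1_3 or K 7_9. The lower flavonoid count was 5 without N 4_6 and 6 without N 1_3 or K 1_3. A flavonol 4-sulfotransferase, LOC100280082, had 11.7, 20.1 and 15.9 FPKM in N deficiency, against 75.6, 98.8 and 101 FPKM in K deficiency and 20.1, 24.7 and 27.0 FPKM in the control (-2.47 ± 0.21, adjusted p = 0.00106). Its K-deficient libraries stood alone above the other 2 groups. Of 43 glutathione S-transferases, which conjugate toxins, 11 were lower and 0 higher, with a median of -0.31. The strongest by p, gst19, had 8.20, 10.4 and 6.89 FPKM in N deficiency, against 40.9, 30.3 and 45.8 FPKM in K deficiency and 49.9, 35.3 and 35.1 FPKM in the control (-2.07 ± 0.20, adjusted p = 0.0018). Members gst5 and gst23 averaged 86.0 ± 21.3 and 54.6 ± 2.35 FPKM in N deficiency, against 228 ± 38.0 and 107 ± 13.9 FPKM in K deficiency (gst5 -1.41, adjusted p = 0.00856; gst23 -0.95, adjusted p = 0.00736). Members of this family resemble each other, so reads could have been split. For the transferases the higher count was 1 without N 1_3, and the lower count was 5 without N 4_6, K 1_3 or K 7_9.

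Of 42 pathogenesis-related protein genes, 3 were higher and 8 lower; the lower count was 5 without N 1_3, N 4_6 or K 7_9. The chitinase gene chn1 had 9.82, 12.8 and 14.9 FPKM in N deficiency, against 71.1, 149 and 54.1 FPKM in K deficiency and 55.3, 54.0 and 124 FPKM in the control (-2.66 ± 0.35, adjusted p = 0.00596). An osmotin-like gene, LOC100273384, had 11.1, 7.61 and 6.21 FPKM in N deficiency, against 54.6, 44.0 and 48.1 FPKM in K deficiency (-2.45 ± 0.20, adjusted p = 0.00099). Both were lower in N deficiency, whereas a thaumatin domain gene, LOC100193461, was higher, at 24.0 ± 5.93 FPKM in N deficiency and 4.496 ± 0.732 FPKM in K deficiency (2.17 ± 0.20, adjusted p = 0.00126). Peroxidase 2 (LOC100285056), a cell wall enzyme, had 6.26, 3.42 and 5.10 FPKM in N deficiency, against 146, 127 and 142 FPKM in K deficiency and 129, 115 and 137 FPKM in the control (-4.58 ± 0.19, 28.0-fold lower, adjusted p = 0.000104). Of 55 peroxidases, 4 were higher and 5 lower; the higher count was 1 without N 1_3 or K 4_6 and 2 without N 4_6, K 1_3 or K 7_9. A protease inhibitor, LOC100282452, had 7.42, 3.07 and 5.84 FPKM in N deficiency, against 144, 167 and 77.3 FPKM in K deficiency and 45.3, 39.2 and 64.6 FPKM in the control (-4.33 ± 0.35, adjusted p = 0.000926).

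Hormone lists held calls in both directions. Jasmonate genes had 6 higher and 3 lower of 38, and a median of 0.40. A jasmonate-induced protein gene, LOC100283794, had 12.8, 3.38 and 6.82 FPKM in N deficiency, against 375, 316 and 357 FPKM in K deficiency and 313, 319.5 and 256 FPKM in the control (-5.49 ± 0.37, 45.5-fold lower, adjusted p = 0.000497). Allene oxide cyclase 4 (LOC100273356), a synthesis enzyme, had 125, 183 and 231 FPKM in N deficiency, against 35.6, 62.3 and 64.0 FPKM in K deficiency (1.72 ± 0.29, adjusted p = 0.0142). These 2 genes lay on opposite sides. The gene opr6, also named by the rule, was lower in N deficiency, with a difference of -1.13. Its call was lost without N 1_3, N 7_9, K 1_3 or K 7_9 (adjusted p 0.0515 to 0.0712). Voom on recovered reads also ended the opr6 call (adjusted p = 0.0516). The cyclase call was lost without N 4_6 (adjusted p = 0.0545), and for the list the higher count was 0 without N 4_6 and 1 without N 7_9, K 1_3 or K 7_9, and the lower count was 1 without N 1_3, K 1_3 or K 7_9.

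Auxin genes had 5 higher and 1 lower of 83, a share near the background of 9.04%; the higher count was 3 without N 4_6, and the lower count was 0 without K 7_9 and 2 without K 1_3 or K 4_6. The auxin efflux carrier gene PIN9 had 8.85, 12.7 and 12.8 FPKM in N deficiency, against 1.03, 2.17 and 2.76 FPKM in K deficiency (2.09 ± 0.26, adjusted p = 0.00436). Of 46 cytokinin genes, 3 were higher and 6 lower; the higher count was 0 without N 4_6 or K 1_3 and 1 without K 4_6, and the lower count was 3 without K 1_3. The hormone's synthesis gene IPT5 had 0.457, 1.31 and 0.491 FPKM in N deficiency, against 3.37, 3.47 and 4.06 FPKM in K deficiency (-1.43 ± 0.21, adjusted p = 0.00797), and the response regulator gene gpm84 had 5.69, 6.32 and 3.64 FPKM in N deficiency, against 19.2, 19.5 and 17.6 FPKM in K deficiency (-1.70 ± 0.19, adjusted p = 0.00292). Both were lower in N deficiency without overlap. In the control IPT5 had 1.13, 0.329 and 2.59 FPKM, which overlapped N deficiency and lay below all K-deficient libraries. Cis-zeatin O-glucosyltransferase 1 (LOC100273251) was also lower in N deficiency (-1.62 ± 0.18, adjusted p = 0.00322). It averaged 1.09 ± 0.198 FPKM in N deficiency, 5.49 ± 1.35 FPKM in K deficiency and 0.980 ± 0.829 FPKM in the control. The IPT5 call was lost with voom on recovered reads (adjusted p = 0.0688). The ethylene synthesis gene LOC107521951 averaged 121 ± 30.2 FPKM in N deficiency and 31.0 ± 15.4 FPKM in K deficiency (adjusted p = 0.0211), a call lost without N 4_6, N 7_9 or K 7_9 (adjusted p 0.0565 to 0.0632) and with the fit of all 12 libraries (adjusted p = 0.0563). An EIN3-like ethylene factor, LOC100274454, had 1.89, 0.783 and 1.11 FPKM in N deficiency, against 22.2, 10.8 and 15.3 FPKM in K deficiency and 24.9, 12.7 and 13.7 FPKM in the control (-2.90 ± 0.28, adjusted p = 0.00181). Of 33 gibberellin genes, 3 were higher and 3 lower; the higher count was 1 without K 7_9, and the lower count was 1 without N 4_6, N 7_9 or K 7_9. Gibberellin 20 oxidase genes went both ways: LOC100284800 averaged 65.2 ± 17.3 FPKM in N deficiency and 29.8 ± 1.43 FPKM in K deficiency (1.07, adjusted p = 0.0145), and LOC100283148 averaged 4.95 ± 0.765 FPKM in N deficiency and 14.9 ± 3.02 FPKM in K deficiency (-1.41, adjusted p = 0.00544). The call of LOC100284800 was lost without K 7_9 (adjusted p = 0.0504) and with the fit of all 12 libraries (adjusted p = 0.0627).

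The counts of growth, housekeeping and other lists in this paragraph stand beside 3.55% higher and 5.49% lower over all tested genes. The lower share of replication genes and of cellulose synthases, 5.88% in each, was near that background. Of 214 cytosolic ribosomal proteins, 1 was lower and 0 higher, with a median of -0.13. Of 30 histone genes 1 was lower, of 34 replication genes 2 were lower, of 17 cellulose synthases 1 was lower and of 30 expansins 1 was lower, with none called higher. Leaving out N 7_9 gave 3 expansins higher, and the single lower ribosomal, histone and expansin calls were each lost without at least 2 of the libraries. For replication genes the lower count was 1 without N 4_6, N 7_9, K 1_3 or K 7_9. The cellulose synthase, cesa3, averaged 5.48 ± 0.694 FPKM in N deficiency and 10.9 ± 0.826 FPKM in K deficiency (-0.87 ± 0.14, adjusted p = 0.0103). Photosynthesis genes, at low level in these roots, had 3 of 12 lower, among them the leaf marker LOC100191715 and lhcb7, the second at 1.02 ± 0.682 FPKM in N deficiency and 5.29 ± 0.878 FPKM in K deficiency (-1.70 ± 0.27, adjusted p = 0.0115). The part of leaf-type transcripts in these calls was not tested. Of 14 proton pump, 7 terpene synthase and 4 strigolactone genes limma called 0. At an unadjusted p under 0.05 they numbered 0, 1 and 0 in that order, and voom on recovered reads called 0 in each list. Of 42 lignin genes 5 were higher and 5 lower, of 35 sugar carriers 2 were higher and 3 lower, and of 14 polyamine genes 2 were lower. For lignin the higher count was 3 without N 4_6, K 1_3 or K 7_9, and the lower count was 2 without N 4_6 and 3 without N 1_3 or K 7_9. For sugar carriers the higher count was 1 without N 1_3 or N 7_9, and the lower count was 1 without N 4_6, K 1_3, K 4_6 or K 7_9, and for polyamine genes the lower count was 1 without N 1_3, N 4_6, K 1_3 or K 7_9.

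**Figure D5:**
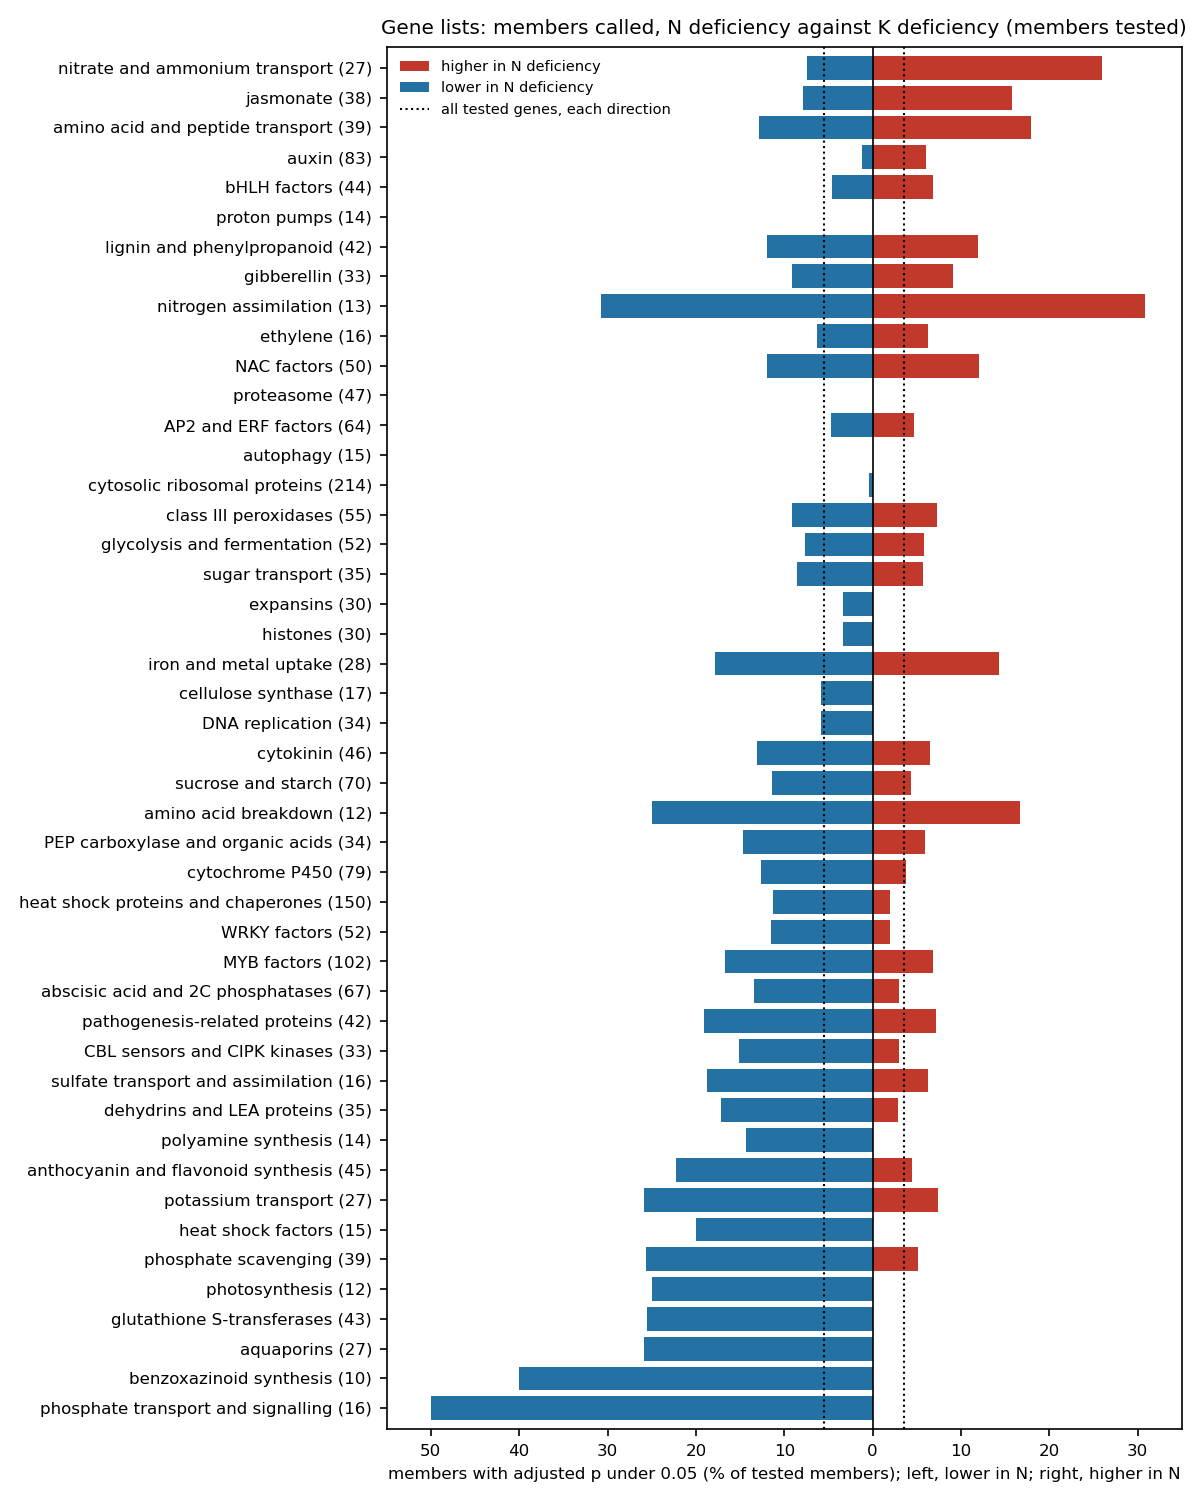
Share of tested members called lower (left, blue) and higher (right, red) in N deficiency against K deficiency, in percent, for the 46 gene lists with at least 10 tested members; the number tested is in parentheses and dotted lines mark 3.55% higher and 5.49% lower over all tested genes. The nitrate and ammonium transport list, which includes NRT1/PTR members, lies at the higher end, with 7 of 27 higher. Phosphate transport and signalling lies at the lower end, with 8 of 16 lower.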

How the data were processed

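RNA from 12 maize root libraries was sequenced on an Illumina instrument, per the labels. The authors deposited 3 tables of 37385 genes with FPKM per library, per the file headers; the aligner, counting tool, strand setting and genome build: not given in the sources used here. A deposited mean signal per group (mean of scaled counts, per the file headers) served to recover whole reads for 99.98% of N-deficient and 99.95% of K-deficient genes. The authors' fold, log2 and p-value columns were not used. Genes with at least 0.5 FPKM in 3 of the 6 libraries were tested on log2(FPKM + 1) with limma 3.58.1 (intensity trend, two-sided, Benjamini-Hochberg, threshold 0.05) in R 4.3.3; tables used Python 3.11.15, pandas 2.3.3 and numpy 2.4.6. In data simulated for this comparison, with 200 of 23415 genes changed, 6.14% of calls were false. That share need not carry over to data with more changed genes. Control columns were the same in the 3 tables. Levels against the control share its 3 libraries and were not tested. Members and gene lists were chosen with earlier results of these data known. Lists match deposited gene descriptions. Named genes are the 15 largest differences in each direction (described, non-overlapping, at or above median FPKM), the 3 smallest p-values of each list with a call, and all called nitrate and ammonium, nitrogen assimilation and potassium transport genes. Alternatives covered the pseudocount, filter, scaling, fit, threshold, replicate block, each library left out and voom.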

Additional observations from a re-analysis of the deposited data

How the results depend on the processing

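The count of 2117 called genes and its split into 831 higher and 1286 lower stayed within 1.5 times under both other pseudocounts, the filter at 5 FPKM, both other scalings, the fit of all 12 libraries, robust weights and voom, which was added after seeing the data and called 2441 genes, 1130 of them higher. Without a filter the higher genes numbered 539. At an adjusted p of 0.01 the counts were 698 called, 202 higher and 496 lower. With 1 library left out, 1034 to 1577 genes were called, 327 to 624 higher and 680 to 988 lower. Similar totals did not mean the same genes. Of the 2117, 1821 were also called with median-ratio scaling, 1758 with voom and 1521 with the replicate label as a block. Without N 4_6, 995 of them were called, and without K 7_9 also 995. Higher genes made up 39.3% of the calls, and 36.7% to 40.8% under the 2 other scalings; median-ratio scaling moved the median difference from -0.03 to 0.01. After removal of group means, like-numbered N-deficient and K-deficient libraries correlated at 0.24, -0.146 and 0.141. Unlike-numbered ones correlated at -0.344 to 0.231. With 3 libraries a group, these values cannot show whether the replicate labels pair the libraries. With the label as a block, 1815 genes were called, 737 higher and 1078 lower, and 137 of the 152 called genes named by the rule passed. Of the calls described above, the block ended those of gpm152 (adjusted p = 0.0522), gln4 (0.0583), SKOR (0.0527), HAK12 (0.0579), HAK18 (0.0616), HAK21 (0.0519), potassium transporter 1 (0.0808), the CIPK gene LOC100381968 (0.061), pht1 (0.0638), nip1a (0.0546), bx2 (0.0673), bx6 (0.0775) and opr6 (0.0709). No named call changed sign under any of the 17 alternatives. Since no called gene had overlapping groups, only the 2 other scalings and voom could have changed a sign. Of the 152, 110 passed without each of the 6 libraries, and the cause of the other losses was not tested. In data simulated for this comparison, 200 of 23415 genes were changed. There, 36.4% of those changed by 1 on the log2 scale and 73.1% of those changed by 2 were recovered. In that setting many differences of that size were missed with 3 libraries a group. The real comparison called 2117 genes, so these rates need not carry over to it.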

Other observations

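The counts of transcription factor genes below stand beside 3.55% higher and 5.49% lower over all tested genes. Of 102 MYB genes tested, 7 were higher and 17 lower in N deficiency; the lower count was 11 without N 4_6, K 1_3 or K 7_9. RADIALIS had 29.99, 29.3 and 36.7 FPKM in N deficiency, against 3.68, 2.26 and 1.31 FPKM in K deficiency and 0.421, 0.787 and 0.560 FPKM in the control (3.32 ± 0.25, limma adjusted p = 0.000771). MYBR87 had 7.19, 11.7 and 4.85 FPKM in N deficiency and was listed at 0 in all K-deficient and control libraries; recovered reads numbered 116, 191 and 96 in N deficiency and 0 in each K-deficient library (adjusted p = 0.00117). It averaged 4.52 ± 2.22 FPKM in P deficiency. Of 50 NAC genes, 6 were higher and 6 lower, among them the secondary wall factor NAC103, at 3.62, 3.11 and 3.50 FPKM in N deficiency, against 12.2, 9.997 and 13.2 FPKM in K deficiency (-1.53 ± 0.15, adjusted p = 0.0016). For NAC genes the higher count was 2 without N 1_3 or N 4_6 and 3 without K 7_9, and the lower count was 3 without N 4_6 or K 7_9.

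LOB14, of the lateral organ boundaries family, had 107, 90.9 and 93.0 FPKM in N deficiency, against 15.9, 14.7 and 14.9 FPKM in K deficiency and 19.6, 9.04 and 21.3 FPKM in the control (2.60 ± 0.12, adjusted p = 0.000104). The AP2 family gene LOC100502296 had 179.7, 158 and 170.5 FPKM in N deficiency, against 28.5, 27.2 and 30.2 FPKM in K deficiency (2.52 ± 0.12, adjusted p = 0.000104), in a list with 3 higher and 3 lower of 64. Both were higher in N deficiency. Of 52 WRKY genes 1 was higher and 6 were lower, and of 44 bHLH genes 3 were higher and 2 lower. For WRKY genes the higher count was 0 without N 1_3, N 4_6 or N 7_9, and the lower count was 1 without K 7_9, 2 without N 1_3, N 4_6 or K 1_3 and 3 without N 7_9. For bHLH genes the higher count was 1 without N 1_3, N 4_6 or K 1_3, and the lower count was 1 without N 4_6 or K 7_9, and for AP2 and ERF genes the higher count was 5 without K 4_6. Flowering promoting factor-like 1 (LOC100281643) showed the largest difference among the 15 higher genes, at 44.9, 14.5 and 39.7 FPKM in N deficiency, against 0.279, 0.561 and 1.25 FPKM in K deficiency and 0.684, 0.282 and 0.697 FPKM in the control (4.22 ± 0.42, adjusted p = 0.00202). The gene described only as PL3K2 (LOC100125656) showed the largest among the 15 lower genes, at 1.24, 0.326 and 0.425 FPKM in N deficiency, against 118, 85.4 and 49.7 FPKM in K deficiency, 2.42, 7.35 and 6.36 FPKM in the control and a mean of 70.3 ± 26.6 FPKM in P deficiency (-5.64 ± 0.33, adjusted p = 0.000286). A ubiquitin family gene, LOC100284418, had 2.93, 1.44 and 2.15 FPKM in N deficiency, against 41.9, 97.7 and 93.5 FPKM in K deficiency and 0.691, 4.29 and 0.791 FPKM in the control (-4.56 ± 0.34, adjusted p = 0.00068). Its K-deficient libraries stood above the N-deficient and control libraries.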
